A study of Mus musculus with 10 samples.

Results

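Guanylate-binding proteins (GBPs) and interferon-inducible GTPases (IRGs) were followed here as 10 genes of the left ventricle: Gbp2, Gbp3, Gbp4, Gbp5, Gbp6, Gbp7, Gbp9, Irgm1, Igtp and Iigp1. They were chosen by name, with results of these same libraries known, so their difference between the groups is a description and no test of it is offered. All 10 were found by symbol among the 55385 genes of the count table, and all 10 passed the filter on low counts that left 18491 genes. Left ventricular RNA of C56Bl6 mice (spelled as in the labels) was sequenced. The Control group, 5 libraries, was fed standard diet, and the HFpEF group, also 5, received L-NAME, which blocks nitric oxide synthases, and High-Fat food over 6 weeks. The regimen models heart failure with preserved ejection fraction. Whether every library is its own mouse is not said in the labels, so errors and p-values reflect variation among libraries, which may be technical. Diet and L-NAME were given together and their parts cannot be told apart.

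Both families are large GTPases of cell-autonomous immunity, switched on above all by interferon gamma and, for many members, also by type I interferons. GBPs coat membranes of intracellular pathogens and promote inflammasome signalling. Among the IRGs, regulatory members such as Irgm1 and Igtp (also called Irgm3) sit on the cell's own membranes, and effector members such as Iigp1 (Irga6) load onto vacuoles that hold a pathogen. In a heart without infection they serve mainly as transcript readouts of interferon signalling, and endothelial cells, macrophages, fibroblasts and cardiomyocytes can all express them. In tissue RNA, fewer cells of a type and less RNA per cell cannot be told apart.

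Promoter sequence is shown first, since it was not used in choosing the genes. Promoters in RefSeq (GRCm38.p6, which is mm10) were matched by symbol for 6 of the 10: Gbp2, Gbp3, Gbp5, Gbp7, Irgm1 and Igtp. The others are Gbp4, Gbp6, Gbp9 and Iigp1. Within 250 bases before the RefSeq start, all 6 held the interferon response core GAAANNGAA on either strand, which 8.18% of 27025 genes with a promoter held. The gamma-activated site TTCNNNGAA was in 3 of the 6 (Gbp5, Gbp7 and Igtp), against 8.13% of all genes. The windows below are read along the gene's strand, each with 1 match in capitals. Gbp3 and Irgm1 hold a second match that overlaps the first, 38 and 30 bases before the start, which is left in lower case. By GENCODE M21, whose starts differ from RefSeq's, the cores of Gbp2, Gbp5 and Irgm1 lie inside the annotated gene. They show the response core of each GBP lying in the reverse orientation and that of Irgm1 in the forward one.
Gbp2 (chr3:142620595-142620623, plus strand, core 58 bases before the start): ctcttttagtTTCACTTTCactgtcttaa
Gbp3 (chr3:142559990-142560018, plus strand, core 44 bases before the start): aggacacagtTTCAGTTTCtatttcccag
Gbp5 (chr3:142496760-142496788, plus strand, core 164 bases before the start): cttgtgtagtTTCAATTTCagtttagaga
Gbp7 (chr3:142530274-142530302, plus strand, core 52 bases before the start): tgtgtgcagtTTCAGTTTCagttctccat
Irgm1 (chr11:48871426-48871454, minus strand, core 24 bases before the start): tcaagaaataGAAACCGAAactgattctc

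In Igtp the gamma-activated site and the response core stood side by side with 2 bases between them. The same arrangement was found in Irgm2, Tgtp1, Tgtp2 and Gm12185, other IRG genes of chromosome 11. The windows of Igtp, Irgm2, Tgtp1 and Tgtp2 are shown with both motifs in capitals, and those of Irgm2 and Tgtp1 lie inside the GENCODE gene. A match of letters is a description and shows no binding.
Igtp (chr11:58199506-58199535, plus strand): gccatTTCTAGGAActGAAACTGAAagctg
Irgm2 (chr11:58214897-58214926, plus strand): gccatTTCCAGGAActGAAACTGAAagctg
Tgtp1 (chr11:48992310-48992339, minus strand): gccatTTCCAGGAAtcGAAACTGAAaccta
Tgtp2 (chr11:49064269-49064298, minus strand): gccatTTCCAGGAAtcGAAACCGAAaccta

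By the GENCODE M21 annotation (mm10), all 10 genes are protein-coding. Gbp5, Gbp7, Gbp3 and Gbp2 follow each other on the plus strand of chromosome 3 between 142493978 and 142638008. Gbp9, Gbp4 and Gbp6 lie on the minus strand of chromosome 5 between 105077630 and 105293698. Irgm1 (48861968 to 48871683, minus strand) and Igtp (58199556 to 58207591, plus strand) are on chromosome 11.

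Clustered genes of a family arise by duplication, so reads may be divided between copies, and how far was measured as the share of 50-base words of a gene's transcripts that also occur in transcripts of another gene. It was 70.7% for Gbp6 (65.0% of its words occur in the overlapping gene model Gm43302), 12.7% for Gbp7 and 11.8% for Igtp, which overlaps Irgm2. The other 7 genes lay between 0.379% (Irgm1) and 8.05% (Gbp9). The count of Gbp6 is therefore uncertain, and those of Gbp7 and Igtp less so.

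**Figure D1:**
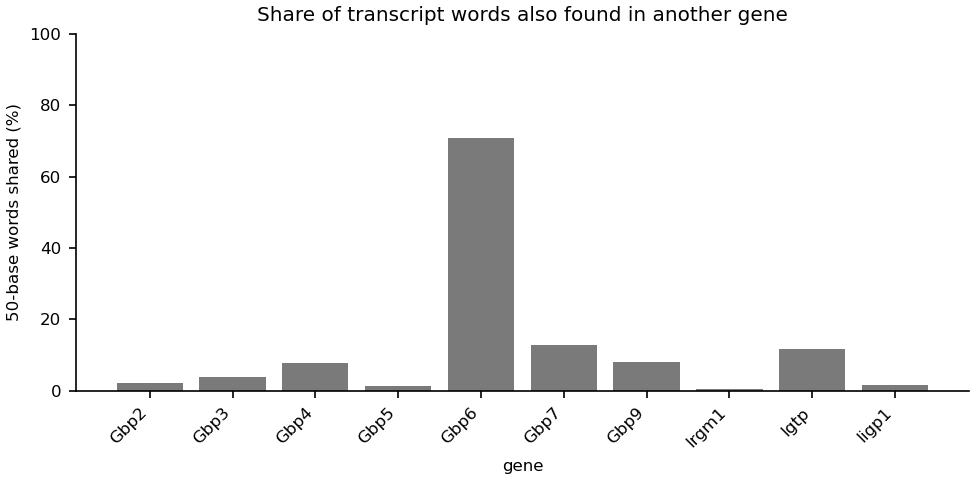
Share of the 50-base words of each gene's annotated transcripts that also occur in another gene, in percent. Gbp6 stands at 70.7% and the other genes at 12.7% or below.

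Values are CPM, a count divided by the TMM-scaled library total in units of 1e6 counts. Library totals ran from 31286355 to 46108710 counts, and each of the 10 genes had at least 202 counts in every library (lowest in Igtp). Myh6, the cardiac myosin heavy chain, had a Control level of 12167 ± 426 CPM and an HFpEF level of 11850 ± 416 CPM (SD, n = 5).

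Per kilobase of the principal transcript in Control, Iigp1 was the most abundant at 16.9 ± 3.27 CPM per kb (SD, n = 5), and its lowest library lay above the highest library of the next gene. Gbp6 (10.8 ± 1.89), Gbp9 (9.07 ± 0.927), Gbp2 (8.58 ± 0.475), Gbp4 (7.53 ± 1.23) and Irgm1 (7.32 ± 0.401) followed in that order, with each neighbour overlapping the next. Gbp7 (6.20 ± 0.595), Gbp5 (5.75 ± 0.359), Gbp3 (4.98 ± 0.351) and Igtp (4.28 ± 0.544) came last, all below the lowest library of Irgm1. In HFpEF every neighbour in the order overlapped, Iigp1 again came first at 12.5 ± 3.21 and Gbp3 last at 3.70 ± 0.859 CPM per kb. The order depends on the transcript length used, and per kilobase of all annotated exons Gbp6 moved to rank 5 and Irgm1 to rank 9 in Control. By that length in HFpEF, Gbp2 came first (7.63 CPM per kb), Iigp1 next (6.70) and Gbp5 last (1.94).

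The comparison asks how the transcripts differed after 6 weeks of the regimen. Of the 10 genes, 9 had a lower fitted level in HFpEF, with changes from -11% (Gbp2) to -32.1% (Gbp4), and Igtp differed by 1.82%. Gbp5 and Gbp9 passed the threshold of the fit across all genes (edgeR's quasi-likelihood test, Benjamini-Hochberg adjusted p below 0.05, the rule behind "called" throughout). That is 2 of 10 called lower, where 2.09% of all genes tested were called lower and 5.33% called in either direction. The median log2 fold change (HFpEF against Control) was -0.34 over the 10 genes and -0.01 over all genes tested, and every fold change given after this is on that log2 scale, ± SE. Since the genes were chosen with this comparison known, nothing is read from these counts.

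**Figure D2:**
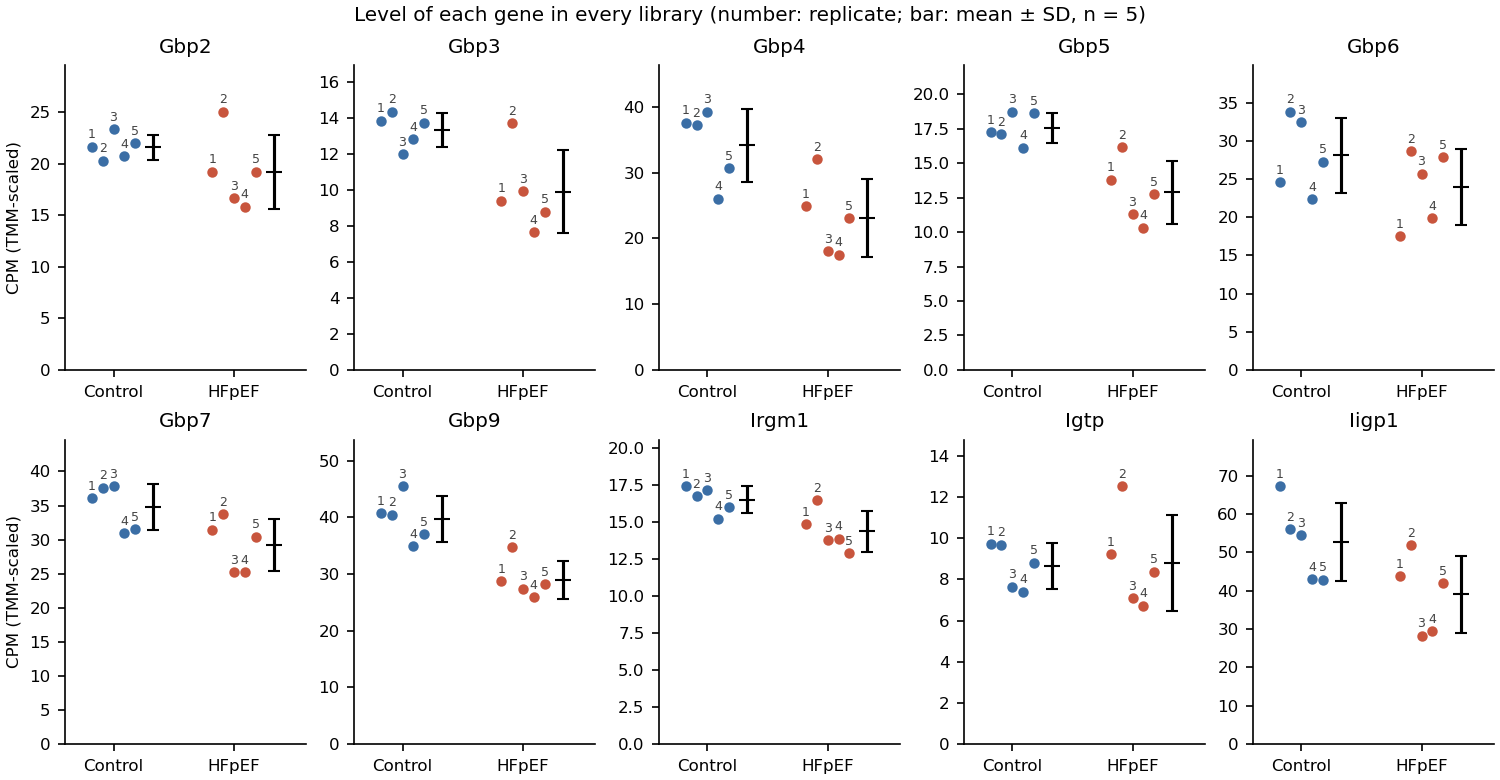
CPM of each of the 10 genes in every library, with the replicate number beside each point, Control in blue and HFpEF in red, and the mean ± SD (n = 5) in black. Gbp9 is the gene whose groups do not overlap, and HFpEF 2 is the highest HFpEF library in all 10 panels.

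Among the GBPs of chromosome 3, Gbp5, an isoprenylated GBP known for promoting NLRP3 inflammasome assembly, measured 17.3, 17.1, 18.7, 16.1 and 18.6 CPM in Control 1 to 5 and 13.8, 16.2, 11.3, 10.3 and 12.8 CPM in HFpEF 1 to 5. Of the HFpEF libraries, 4 lay below all of Control, and HFpEF 2 lay just above the lowest Control library. Its log2 fold change was -0.45 ± 0.10 (SE, 5 libraries a group), and without HFpEF 3 the call ended at a fold change of -0.40. Gbp3 measured 13.9, 14.4, 12.0, 12.8 and 13.8 CPM in Control and 9.42, 13.7, 9.93, 7.66 and 8.81 CPM in HFpEF. Here too 4 HFpEF libraries were below all of Control and HFpEF 2 was within its range. The log2 fold change of Gbp3 was -0.43 ± 0.12, not called.

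Gbp7 measured 36.1, 37.6, 37.9, 31 and 31.5 CPM in Control and 31.5, 33.7, 25.2, 25.2 and 30.4 CPM in HFpEF, with 3 HFpEF libraries below all of Control (-0.25 ± 0.09, not called). Gbp2, an isoprenylated GBP that is recruited to vacuoles of Toxoplasma, measured 21.6, 20.3, 23.3, 20.7 and 22.0 CPM in Control and 19.2, 25, 16.7, 15.8 and 19.2 CPM in HFpEF. HFpEF 2 was above every Control library while the other 4 were below them all, and the fold change was -0.17 ± 0.10, not called. The spread between HFpEF libraries was 3.60 CPM (SD) against 1.2 CPM in Control.

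Of the GBPs of chromosome 5, Gbp9 measured 40.7, 40.5, 45.5, 34.9 and 37.0 CPM in Control and 28.7, 34.7, 27.4, 26.0 and 28.3 CPM in HFpEF. All HFpEF libraries were below all Control libraries, a pattern seen for 2.93% of all genes tested, though HFpEF 2 and Control 4 were close. The log2 fold change was -0.45 ± 0.08, and the call was kept in all 10 fits that left out 1 library. Gbp4 had the largest fold change of the 10 (-0.56 ± 0.18) without being called. Its levels were 37.6, 37.2, 39.3, 26.0 and 30.7 CPM in Control and 24.9, 32.0, 18.1, 17.5 and 23.1 CPM in HFpEF. HFpEF 2 exceeded Control 4 and Control 5, and the other 4 HFpEF libraries were below all of Control.

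Gbp6 overlapped most among the GBPs, at 24.6, 33.8, 32.4, 22.3 and 27.3 CPM in Control and 17.5, 28.6, 25.7, 19.9 and 27.8 CPM in HFpEF (-0.23 ± 0.16, not called). HFpEF 1 was its lowest library, unlike in any other gene of the 10. Summing Gbp6 with Gbp10 and Gm43302, which share its sequence, gave 29.6 ± 5.67 CPM in Control and 25.8 ± 6.25 CPM in HFpEF (-0.19 ± 0.19).

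Of the IRG genes, Iigp1 (chromosome 18, 60376027 to 60392634, plus strand) is an effector IRG and had the highest mean CPM of the 10 in both groups. It measured 67.3, 56.0, 54.5, 43.1 and 42.9 CPM in Control and 43.7, 51.8, 28.3, 29.4 and 41.9 CPM in HFpEF (-0.43 ± 0.20, not called). Control ran from 42.9 to 67.3 CPM, and HFpEF 1 and HFpEF 2 were within that range. Irgm1, a regulator of IRG loading with ties to autophagy and mitochondria, measured 17.5, 16.8, 17.2, 15.2 and 16.0 CPM in Control and 14.9, 16.5, 13.8, 13.9 and 12.9 CPM in HFpEF (-0.20 ± 0.07, not called). Of its HFpEF libraries, 4 were below all of Control and HFpEF 2 was within the Control range.

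Igtp was the gene with no lower mean in HFpEF. It measured 9.73, 9.69, 7.64, 7.41 and 8.80 CPM in Control and 9.23, 12.5, 7.07, 6.73 and 8.38 CPM in HFpEF. HFpEF 2 was above and HFpEF 3 and HFpEF 4 below the Control range, with a fold change of 0.03 ± 0.16 and a 95% interval from -0.31 to 0.37. The sign turned without HFpEF 2 (-0.14), Control 3 (-0.01) or Control 4 (-0.02). Summed with its overlapping neighbour Irgm2 the fold change was -0.12 ± 0.13. Whether Igtp differed from the other genes in response was not tested.

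Sums over whole clusters do not depend on how reads were divided between copies within them. The gene models Gm43302 and Gm43802 were added to these sums after the data were seen. The chromosome 5 cluster (7 genes with Gm43302) gave 104 ± 14.2 CPM in Control and 78.3 ± 13.6 CPM in HFpEF (-0.41 ± 0.12). The chromosome 3 cluster (6 genes with Gm43802) gave 87.4 ± 4.32 and 71.2 ± 11.5 CPM (-0.29 ± 0.09). The 11 IRG genes of chromosome 11 gave 143 ± 10.7 and 127 ± 17.1 CPM (-0.17 ± 0.08), and the 4 of chromosome 18, Iigp1 among them, 77.5 ± 15.2 and 74.0 ± 19.6 CPM (-0.06 ± 0.20). The ranges of the groups overlapped in all 4 sums.

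These values depended on single libraries. HFpEF 2 was the highest HFpEF library for all 10 genes and was at or above the lowest Control library for 9, with Gbp9 the exception. Its median deviation from the group mean over the 10 genes was 0.36 on the log2 scale, against -0.27 in HFpEF 4 and -0.17 in HFpEF 3. Without HFpEF 2, 6 of the genes were called lower (Gbp2, Gbp3, Gbp4, Gbp5, Gbp9 and Irgm1), where 1.86% of all genes tested were called lower, and the median fold change was -0.42. Without HFpEF 3, Gbp9 alone was called (1.08% of all genes), as it was without Control 4 and Control 5 together (1.62%), an omission chosen after seeing the data. Those 2 have the highest totals, and Control 4 was the lowest Control library for 7 of the 10 genes. With all libraries, DESeq2 and limma-voom each called Gbp3, Gbp4, Gbp5 and Gbp9 lower, where they called 2.82% and 1.84% of all genes lower. HFpEF 2 had 33137347 counts, of which 37.4% came from the mitochondrial genome, within the range of the other HFpEF libraries on both.

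**Figure D3:**
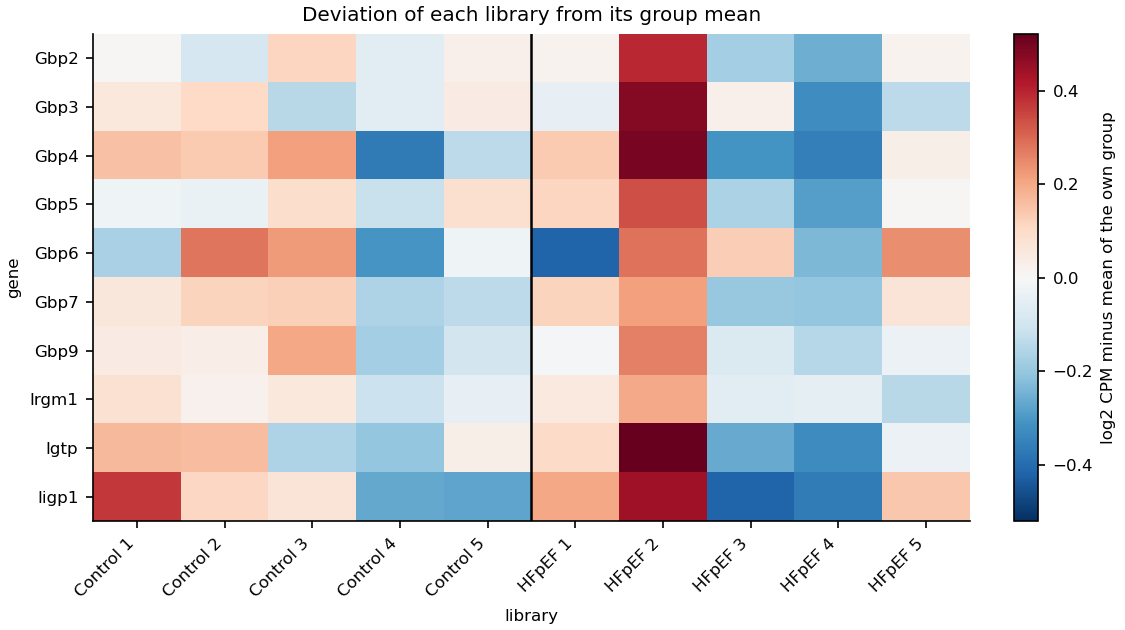
Deviation of log2 CPM from the mean of the library's own group, for the 10 genes (rows) in the 10 libraries (columns). HFpEF 2 is above its group mean in all 10 genes, and Control 4 and HFpEF 4 are below theirs in all 10.

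The genes varied together within the groups, a feature that does not use the difference between them. After group means were removed, all 45 pairs had a positive Pearson correlation of log2 CPM over the 10 libraries, with a median of 0.73 (Spearman 0.66) and a range from 0.18 (Gbp6 with Irgm1) to 0.96. Over all pairs of genes tested the median was 0.00 to 2 decimals, and 2.23% of pairs were at 0.73 or above. The pattern rested in part on 2 libraries, since without HFpEF 2 and HFpEF 4 the median over 8 libraries was 0.49 and 33 of the 45 pairs were positive. All pairs share the same libraries, so these values are descriptions.

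Of 12297 other named genes at 1 CPM or more, those whose variation within groups was most like the mean of the 10 were Stim2 (Pearson r = 0.97 over 10 libraries), Tgtp2 (0.96), Tgtp1 (0.94), H2-Q10 (0.92), Tmem25 (0.92), H2-Q4 (0.92), Uba7 (0.92) and Rassf10 (0.91). Tgtp1 and Tgtp2 are IRG effectors, H2-Q4 and H2-Q10 are class I histocompatibility genes, and Uba7 is the enzyme that activates ISG15. Stim2 is a calcium sensor of the endoplasmic reticulum. It was not called (-0.02 ± 0.06, edgeR adjusted p = 0.911). Without HFpEF 2 and HFpEF 4 the 8 correlations lay between 0.75 (Tmem25) and 0.90 (H2-Q10). Rassf10 fell (-0.52 ± 0.14, adjusted p = 0.0422 by edgeR), though 9 of the 10 fits without 1 library left it not called.

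Among the remaining genes of both families, calls were few. Of 4 other GBPs, Gbp2b, Gbp8 and Gbp11 were too low to be tested, at 0.438 CPM or below in every library, and Gbp10 was not called (-0.04 ± 0.51, edgeR adjusted p = 0.978). Of 14 other IRGs and relatives, all tested, 1 fell (2.09% of all genes tested), 0 rose and 13 were not called. Folds below 0 numbered 8, and the median was -0.06. The gene that fell was Gvin1, a very large interferon-inducible GTPase, whose mean was 127 ± 12.2 CPM in Control against 96.8 ± 11.4 in HFpEF (SD, n = 5; fold change -0.39 ± 0.08, edgeR adjusted p = 0.0152). Its call held in all 10 fits without 1 library, but 99.2% of its 50-base words occur in another gene, mostly in Gm4070. Summed with Gm4070 the fold change was -0.26 ± 0.09, and the values of both are uncertain.

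Tgtp1 (-0.59 ± 0.20) and Tgtp2 (-0.50 ± 0.14), near-identical effector genes, were not called alone (edgeR adjusted p = 0.119 and 0.0633). Their sum, which avoids the division of reads, measured 33.8 ± 3.77 CPM in Control and 23.3 ± 6.20 CPM in HFpEF (-0.53 ± 0.16). Some IRG models lay the other way without being called. F830016B08Rik stood at 22.9 ± 6.05 and 32.8 ± 9.69 CPM (0.52 ± 0.25, adjusted p = 0.278), and Gm5431 was higher in all HFpEF than in all Control libraries at 1.59 ± 0.206 and 2.06 ± 0.134 CPM (0.38 ± 0.12, adjusted p = 0.0936). Of all 18491 genes tested, 718 were higher in all HFpEF than in all Control libraries. F830016B08Rik and Gm5431 were chosen after their values were seen. DESeq2 called 3 and limma-voom 2 of the 14 lower (2.82% and 1.84% of all genes).

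**Figure D4:**
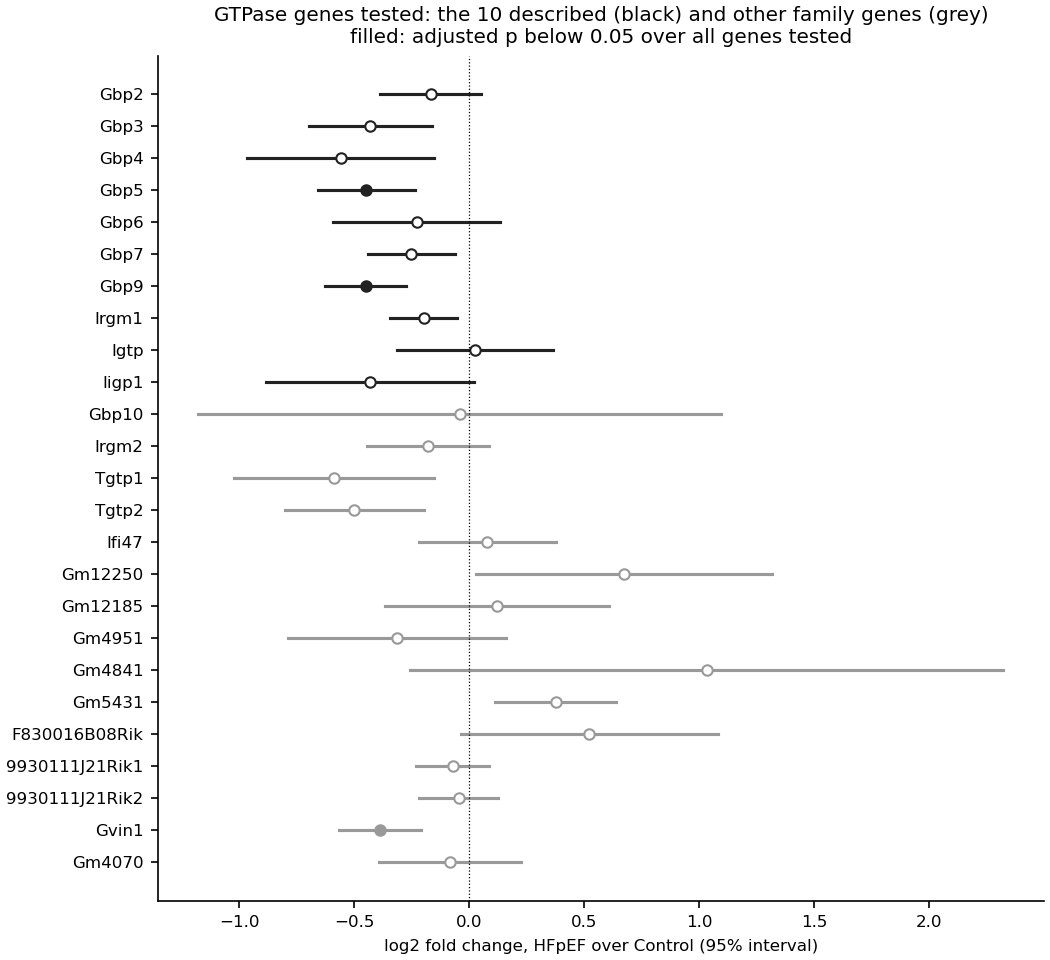
Log2 fold change with its 95% interval for the 10 genes (black) and the other family genes tested (grey), filled where the adjusted p was below 0.05. Gbp5, Gbp9 and Gvin1 are filled, and the intervals of Gm12250 and Gm5431 lie above 0 without a call.

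Upstream, the interferon receptors, kinases and factors had 2 of 24 genes tested called lower, against 2.09% of all genes tested. The list had 0 called higher, 22 without a call and a median of -0.09. Those that fell were Irf9 and Stat2, the DNA-binding and partner subunits of the factor that type I interferon activates. Irf9 went from 15.3 ± 1.29 to 11.3 ± 0.587 CPM (-0.43 ± 0.07, edgeR adjusted p = 0.00168), and Stat2 from 23.5 ± 1.74 to 17.5 ± 2.02 CPM (-0.42 ± 0.08, adjusted p = 0.00502). Both calls held in all 10 fits without 1 library. On the interferon gamma side, Irf1, Ifngr1 and Ifng were chosen after their values were seen. Irf1 stood at 16.1 ± 1.97 and 12.9 ± 1.51 CPM (-0.32 ± 0.09, adjusted p = 0.0642). The receptor chain Ifngr1 measured 44.3 ± 2.29 and 48.2 ± 2.77 CPM (0.12 ± 0.05, adjusted p = 0.206). Ifng itself had 0 counts in every Control library and at most 1 in any HFpEF library, so a difference in the ligand was not detectable at this depth.

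Other targets of interferon gamma had 3 of 20 genes tested called lower, against 2.09% of all genes tested. The list had 0 called higher, 17 without a call and a median of -0.10. Cd274, which encodes the checkpoint ligand PD-L1, fell from 10.5 ± 1.35 to 6.84 ± 1.53 CPM (-0.62 ± 0.14, edgeR adjusted p = 0.0202), and all its HFpEF libraries were below all of Control. That pattern was seen for 2.93% of all genes tested. The call of Cd274 ended without Control 3, HFpEF 3 or HFpEF 5. The peptide transporter gene Tap2 fell from 15.7 ± 1.2 to 13.0 ± 1.13 CPM (-0.27 ± 0.07, adjusted p = 0.0375) and the adhesion gene Icam1 from 7.59 ± 1.61 to 4.98 ± 0.967 CPM (-0.61 ± 0.16, adjusted p = 0.0494). Tap2 was called in 4 and Icam1 in 2 of the 10 fits without 1 library. Without HFpEF 2, 6 of the 20 were called lower (1.86% of all genes), and without HFpEF 3, 0 were called (1.08% of all genes lower). Leaving out Control 3 or HFpEF 5 also gave 0, where 749 and 707 of all genes tested were called in either direction. The class II genes, chosen after their values were seen, had folds above 0 without a call. H2-Aa stood at 17.4 ± 4.14 and 24.5 ± 6.12 CPM (0.49 ± 0.21, adjusted p = 0.234), and the fold changes were 0.44 for H2-Ab1, 0.49 for H2-Eb1 and 0.34 for Cd74, the invariant chain.

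Partners of these GTPases in membrane targeting and inflammasomes had 2 of 19 genes tested called lower, against 2.09% of all genes tested. The list had 0 called higher, 17 without a call and a median of -0.08. Rnf213, a giant ubiquitin ligase, fell from 186 ± 10.2 to 156 ± 13.4 CPM (-0.25 ± 0.06, edgeR adjusted p = 0.0278) and Trim21, an antibody-binding ubiquitin ligase, from 5.28 ± 0.438 to 4.09 ± 0.368 CPM (-0.37 ± 0.09, adjusted p = 0.0299). They were called in 5 and 4 of the 10 fits without 1 library, and neither without Control 2, HFpEF 3, HFpEF 4 or HFpEF 5. Among relatives by fold, the dynamins, mitofusins, atlastins and Mx proteins, 1 of 13 fell (2.09% of all genes tested) and 0 rose. It was the interferon-stimulated Mx2 (2.07 ± 0.254 to 1.41 ± 0.268 CPM, -0.55 ± 0.15, adjusted p = 0.0468), called in 1 of the 10 fits without 1 library.

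**Figure D5:**
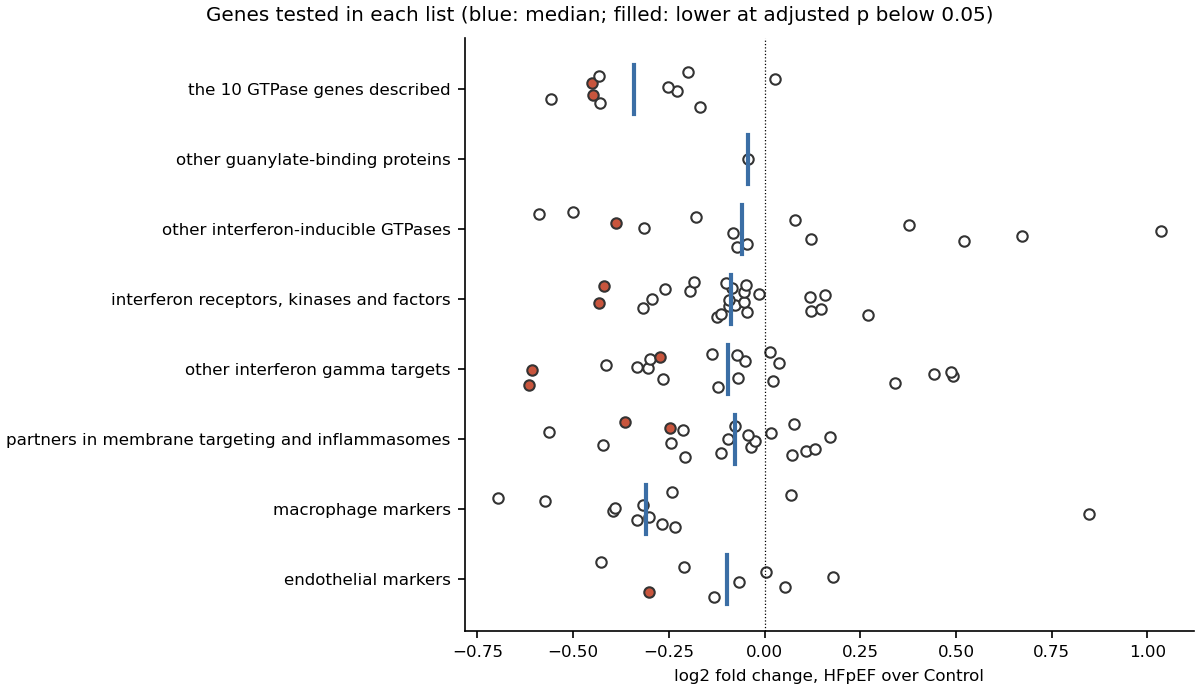
Log2 fold change of every gene tested in 8 gene lists, with the list's median in blue and genes called lower filled in red. The medians are -0.34 for the 10 GTPase genes, -0.31 for macrophage markers and between -0.10 and -0.04 for the other 6 lists.

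Marker lists of cells that can express these genes were read beside them. Macrophage markers had 10 of 12 folds below 0 and a median of -0.31. By edgeR 0 were called and 7 had an unadjusted p below 0.05, as did 3789 of all 18491 genes tested. Ccr2, which is among those 7, lay above 0 (0.85 ± 0.37, edgeR adjusted p = 0.237), as did Mertk (0.07 ± 0.07). Ccr2 and Mertk were chosen after their values were seen. DESeq2 called 3 and limma-voom 1 of the 12 lower (2.82% and 1.84% of all genes). Their summed level ran from 153 to 245 CPM in Control (median 168) and from 132 to 170 CPM in HFpEF (median 146), with HFpEF 2 the highest of HFpEF. In Control the order was unlike that of the 10 GTPase genes. Control 5 had the highest macrophage sum (245 CPM) and Control 1 the lowest (153 CPM). The 10 GTPase genes summed to 249 CPM in Control 5 and 286 CPM in Control 1. Cd68 stood at 5.88 ± 1.07 and 4.49 ± 0.468 CPM (-0.40 ± 0.12, edgeR adjusted p = 0.0664) and Lyz2 at 47.2 ± 14.2 and 29.2 ± 4.32 CPM (-0.70 ± 0.20, adjusted p = 0.0930). Endothelial markers summed to between 1224 and 1431 CPM in Control and between 1181 and 1351 CPM in HFpEF, with 5 of 8 folds below 0, a median of -0.10 and 1 called lower (Egfl7, -0.30 ± 0.07, adjusted p = 0.0225). Of all genes tested 2.09% were called lower, and the call of Egfl7 ended without Control 1, HFpEF 3 or HFpEF 4. Markers of T and natural killer cells, the main sources of interferon gamma, summed to between 2.77 and 3.29 CPM in Control and between 2.73 and 4.32 CPM in HFpEF, with 4 of 14 tested and 0 called by edgeR, DESeq2 or limma-voom (0 at an unadjusted p below 0.05 in edgeR). The T cell gene Cd3d had at most 2 counts in any library. The part of these cells in the levels of the GTPase genes was not tested.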

How the data were processed

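RNA of 10 left ventricle libraries was sequenced by the submitters, and the authors deposited 1 table of expected counts per gene. The submitters' processing notes list Bowtie2 2.1.0, RSEM 1.2.15 and the mm10 build with no role for each. Whether counting used strand was not given in the sources used here. Values in the table were whole, and 92 spike-in rows with 0 counts were left out. Libraries were grouped by their labels. Genes with enough counts for a minimum of 10 (filterByExpr) were tested with edgeR 4.0.16 in R 4.3.3 (TMM, quasi-likelihood, Benjamini-Hochberg over 18491 genes). The fitting code was checked on simulated counts. Alternatives were other size factors, mitochondrial genes left out, other count filters, DESeq2 1.42.0, voom in limma 3.58.1, a replicate block and libraries left out. GENCODE M21 matched 55144 of 55385 genes. Shared words of 50 bases were counted over its transcripts.

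The members and gene lists were chosen with earlier results of these data known. Named genes were every member, up to 5 called genes of each other list by smallest p (or, with none called, the tested gene of smallest p), the most abundant marker of each cell type list, and the 8 genes of at least 1 CPM whose variation within groups was most like that of the members. Same-numbered libraries were checked for pairing, and their deviations correlated between -0.154 and 0.125, so the main fit used no block.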

Additional observations from a re-analysis of the deposited data

How the results depend on the processing

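Of the 10 GTPase genes, DESeq2, limma-voom and the fit with a replicate block each called 4 lower, against 2 by edgeR (2.82%, 1.84%, 1.62% and 2.09% of all genes were called lower in these fits), and leaving out 1 library gave 1 to 6. Leaving out Control 4 and Control 5 together, chosen after seeing the data, gave 1. Over all genes, 985 were called, against 1448 by DESeq2, 908 by limma-voom and 744 with the replicate block. Leaving out 1 library gave 554 to 1101 (630 without Control 1, 554 without HFpEF 3 and 633 without HFpEF 4). The block ended the calls of Tnnt2 (edgeR adjusted p = 0.0573), Mx2 (0.0855) and Ighm. It called H2-Aa, H2-Ab1 and H2-Eb1 higher, so that the interferon gamma targets had 3 lower and 3 higher. Of all 18491 genes tested, the block fit called 744 in either direction, 300 of them lower. Deviations of same-numbered libraries correlated between -0.154 and 0.125, and 3 of 10 libraries correlated best with their own number. In the 10 GTPase genes, Control 4 and HFpEF 4 were both below their group mean in all 10. Number 3 went apart, with median deviations of 0.10 in Control 3 and -0.17 in HFpEF 3. Whether the numbers pair the libraries was not settled. Size factors moved the median log2 fold change by -0.0132 to 0.00562. Log2 fold changes that turned sign were all near 0 against their error. Igtp gave -0.0126 without Control 3, -0.0205 without Control 4, -0.0342 without Control 4 and Control 5, and -0.136 to 0.108 over all single omissions (lowest without HFpEF 2). Gbp10 gave -0.293 to 0.276 over single omissions, positive without Control 3 (0.276), HFpEF 1 (0.0200), HFpEF 4 (0.234) or HFpEF 5 (0.0130). Fabp4 gave -0.00746 (without HFpEF 1) to 0.0980, and Stim2 -0.0531 to 0.0110 (without HFpEF 4). Cd4 gave 0.000874 with RLE factors, 0.00262 with DESeq2, 0.00681 with the replicate block, 0.160 without Control 4 and Control 5, and -0.117 to 0.163 over single omissions. The cause of these shifts was not tested. Depth limits Ifng, Gbp2b, Gbp8, Gbp11 and most lymphocyte markers.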

Other observations

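Other cell markers gave these values. Ighm, the IgM heavy chain of B cells, fell (-0.33 ± 0.08, edgeR adjusted p = 0.0215) and kept its call in 7 of 10 fits that each left out a library. Csf3r, the receptor of granulocyte colony-stimulating factor, fell (-0.81 ± 0.22, edgeR adjusted p = 0.0479) and kept it in 2 of 10. Cardiomyocyte markers had 3 of 6 folds below 0 and a median of 0.00. Of them Tnnt2, cardiac troponin T, fell (-0.22 ± 0.05, edgeR adjusted p = 0.0185), a call kept in 7 of 10 fits without a library, and Ryr2, the calcium release channel, chosen after its value was seen, lay above 0 (0.12 ± 0.05, adjusted p = 0.181). DESeq2 called 1 of the 6 lower and 1 higher. Of all 18491 genes tested, DESeq2 called 1448 in either direction, and 2.82% of all genes were called lower. Of fibroblast markers and of smooth muscle and pericyte markers, 0 of 6 each were called by edgeR, with 2 and 1 at an unadjusted p below 0.05. Of all 18491 genes tested, 3789 had such a p. Smooth muscle and pericyte markers had 0 of 6 folds below 0 and a median of 0.17. Fibroblast markers had 2 of 6 below 0 and a median of 0.11. DESeq2 called 1 fibroblast marker, Lum, higher (0.38) and 0 of the others, and limma-voom 0 of either list. Their parts in the levels of the GTPase genes were not tested.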
